A study of Bos taurus with 16 samples.

Results

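The transcript levels of 9 transcription factors of the myeloid lineage were compared between CD14+ cells from the endometrium and from the blood of pregnant cows: SPI1, CEBPA, CEBPB, CEBPD, MAF, IRF5, IRF8, RUNX1 and PPARG. They were found on the array by the gene name or by the symbol in the probe's description, which gave 8 of the 9 genes with 11 probes, out of 20602 names with 21475 probes in all. A match by gene identifier added SPI1 and a further probe of RUNX1, so that 13 probes of 9 genes were examined, and 6 of the genes had 1 probe each. The cows were 4 in number, at day 164, 239, 242 and 248 of pregnancy (animals 1 to 4), and both cell preparations came from each of them. Endometrial CD14+ cells had been sorted by flow cytometry from enzymatically dispersed interplacentomal endometrium, blood CD14+ cells from mononuclear cells of heart blood taken at the abattoir. None of the cows was described as treated, and no cells of cows that were not pregnant were part of the comparison. The amplified RNA of the cell preparations of an animal was hybridized together, in different dyes, on each of 2 Agilent bovine arrays, 8 arrays in all. The comparison asks whether the factors that make and shape monocytes and macrophages differ in transcript level between the cells of the pregnant uterus and their counterparts in blood.

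Monocytes and macrophages owe their identity to a small set of transcription factors. SPI1, also called PU.1, and the C/EBP proteins bind together at the regulatory regions of most myeloid genes, and RUNX1 opens the way to that program in blood stem cells. Onto this base, interferon regulatory factors shape the inflammatory and the antigen-presenting states, C/EBPβ and C/EBPδ respond to bacterial products and cytokines, MAF marks resting tissue macrophages, and PPARγ turns on lipid handling. All act by binding DNA, and most are also controlled through protein stability, partners or ligands, which an array does not measure.

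CEBPA, CEBPD and RUNX1 had more than 1 probe, and these differ in sequence, which bears on values given further on. All probes are 60 bases long. CEBPA and CEBPD had 1 probe each with 45% G and C and 1 probe each that is far richer in these bases, with 83.3% and 81.7%. The median over all probes of the array was 43.3%, and 0.671% of them had 70% or more. The GC-rich probes are shown whole, and of the others the first 30 bases, in the order in which the array files give them.
CEBPA A_73_109326: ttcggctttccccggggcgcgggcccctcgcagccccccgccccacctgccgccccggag
CEBPA A_73_117799: gagggcggctttggttctcttctttgggga
CEBPD A_73_118824: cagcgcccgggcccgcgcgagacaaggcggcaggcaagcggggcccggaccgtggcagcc
CEBPD A_73_114333: gcagtaatagacgagaggacaaaggttggc
RUNX1 A_73_106931: cttctcgcccagcccttcttcaactactga
RUNX1 A_73_112916: tttttgtctatttctttctttggggttttc
RUNX1 A_73_111901: cagcggcatgacgaccctctcagccgagct
SPI1 A_73_111873: actgcctgaccagaagtcacgatccatgga
The SPI1 probe is shown because its name is uncertain. The files call it LOC507100 and describe it as similar to human SPIB, a close relative of SPI1 that is best known from B cells, and a reference gene table lists the same gene identifier as SPI1. A second probe, A_73_111956, carries the same description and kept the name SPIB here. Values under SPI1 hold for the probe, whichever of these genes it reports.

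All 13 probes passed the filter on dim signals, that is, in 1 or both tissues at least 4 of the 8 channels gave a signal well above background. Of the 13, 12 were above background in 8 of 8 channels of both tissues, and RUNX1 A_73_111901 in 6 of 8 endometrial and 8 of 8 blood channels. Over the whole array, 65.2% to 82.9% of spots gave a signal well above background in a channel, and 0 were saturated. The blood sample of animal 1 stood apart, with a Pearson's r of 0.813 to 0.840 with the other blood samples over all probes tested, against 0.944 to 0.968 among the blood samples of animals 2, 3 and 4. In animal 3 the endometrial RNA had the same dye on both arrays, so that a dye effect and a tissue effect cannot be told apart there, and in the other 3 animals the dyes were swapped. Array files were read as those of the animal's other hybridization, since the authors' value table matched them that way. The direction of every ratio of animals 1, 2 and 4 rests on this reading, and read as attached to the samples the files would give those ratios the opposite sign. With the files as attached, limma called 0 of 16519 probes, 0 of them members, and 0 members passed the unadjusted p. CD14, the antigen used for sorting, was above background in all channels, with a log2 ratio of endometrium over blood of -0.33 (SE 0.48, adjusted p = 0.782). Its ratios in animals 1 to 4 were -2.08, 0.11, 0.51 and 0.13. CD68, a macrophage marker that was not used for sorting, had a mean ratio of 1.38 (SE 0.44, adjusted p = 0.276). Of 12 monocyte and macrophage markers on the array, ITGAM was above background in 2 of 8 endometrial channels, FCGR1A and MARCO in 2 and 3 of 8 blood channels, and the other 9 in 4 or more of 8 channels of both tissues. Their summed linear level in animals 1 to 4 was 102000, 10200, 42400 and 34900 in endometrium and 184000, 5960, 7630 and 5840 in blood. In the same blood samples that of T and natural killer cell markers was 2220, 60400, 32400 and 59900. For B cell markers it was 7650, 17100, 49100 and 26200 there. The blood of animal 1 was thus the highest in the first list and the lowest in the other lists. The part of this spread in the values of the 9 factors was not tested.

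None of the 9 factors was called differentially expressed between endometrial and blood CD14+ cells at the limits used here, which with 4 animals does not show equal levels. With the adjusted p limited to 0.05 and a change of more than 2-fold, limma called 0 of the 13 probes, where it called 0.0661% of all 16653 probes tested as higher in endometrium and 0% as higher in blood. With the p before adjustment limited to 0.05 and the same 2-fold change, 1 of the 13, IRF5, was higher in blood, against a share of 5.11% of all probes, and 0 were higher in endometrium, against 5.27%. Wherever a gene is said to pass the adjusted or the unadjusted p, it also passed this 2-fold change. The levels of the tissues overlapped for all 13 probes, while 2.41% of all probes had all 4 endometrial values above the blood values and 3.03% had all 4 below. Of the 13 mean ratios, 10 were negative, and the median of all 13 was -0.50, beside -0.02 over all probes. Only 2 probes, both of RUNX1, were on the same side in all 4 animals, with blood higher, as were 14.7% of all probes, and 0 had endometrium higher in all 4, as had 10.2%. A mean over 2-fold was found toward blood for 3 of the 13, those of SPI1, IRF5 and IRF8, and toward endometrium for 1 of CEBPA, where 7.61% and 8.14% of all probes passed 2-fold on these sides.

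**Figure D1:**
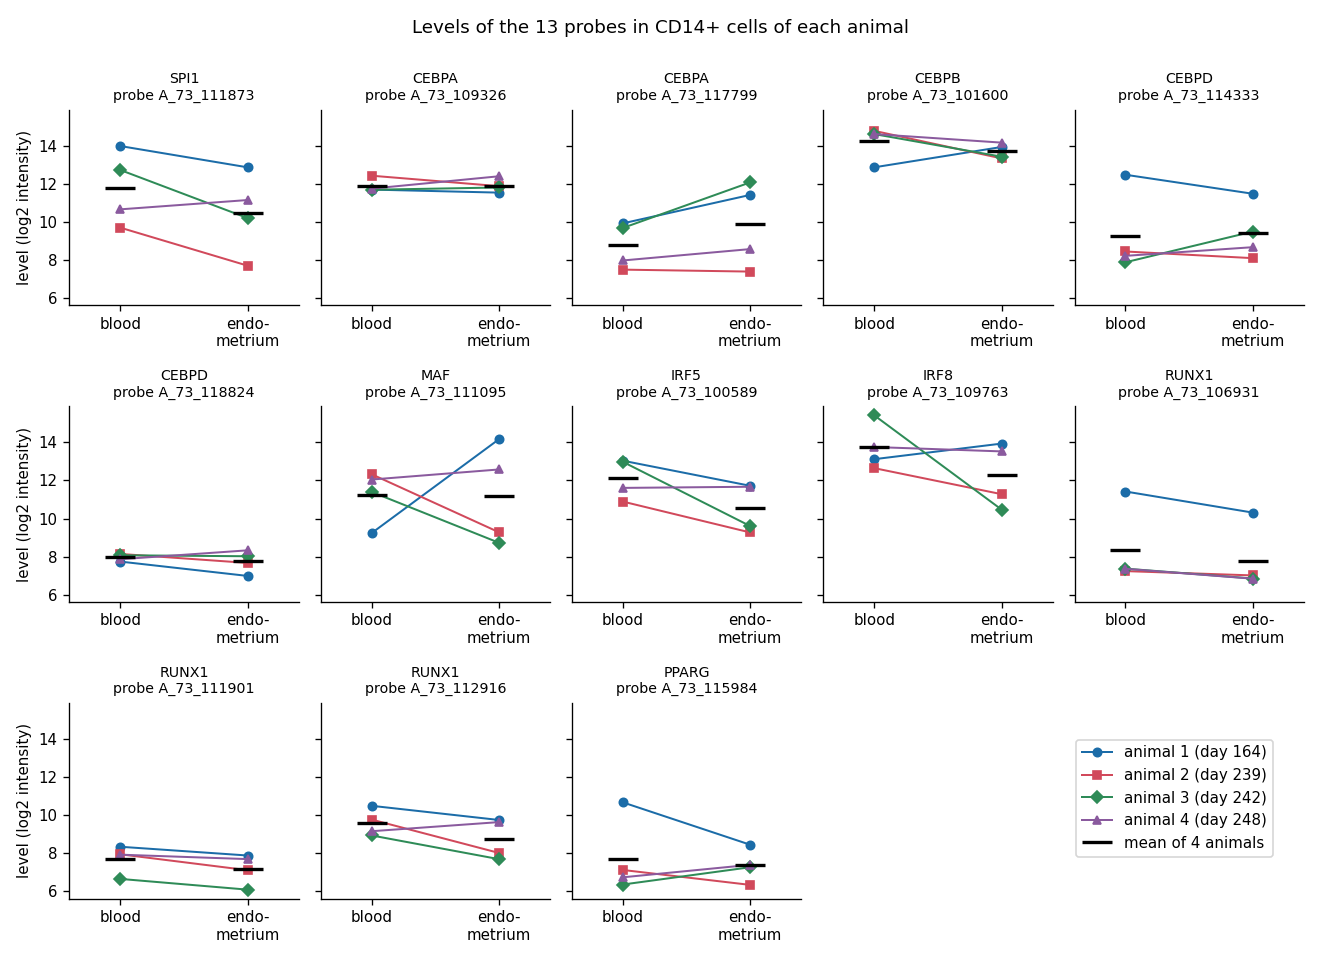
Level of each of the 13 probes, as log2 normalized intensity, in blood and endometrial CD14+ cells, with 1 line for each animal and black bars for the mean of 4 animals. Lines slope in both directions in most panels, the values of the tissues overlap in all 13, and levels are not comparable between panels, since probes differ in brightness.

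The ratios of most probes spread widely over the animals. The SD of the 4 ratios had a median of 1.13 over the 13 probes, beside 0.682 over all probes tested, and ranged from 0.25 for RUNX1 A_73_111901 to 3.71 for MAF. By this SD, MAF exceeded 99.98% of all probes and IRF8 99.4%, whereas CEBPA A_73_109326 exceeded 34.3%. In animal 2 all 13 probes were higher in blood, where 52.6% of all probes were. In animal 4, 4 of the 13 were higher in blood, where 53.8% of all probes were, and 0 of the 13 passed a change of 2-fold, against 11.7% of all probes in that animal. The endometrial sample of animal 4 was close to blood over all probes tested, with a Pearson's r of 0.951 with its own blood sample. Its r with the other endometrial samples was 0.795 to 0.897. For animals 1, 2 and 3 the r between the tissues of the animal was 0.885, 0.903 and 0.788. In animal 3, 8 of the 13 passed 2-fold, against 41.3% of all probes, 6 of them toward blood. In animal 1, 7 passed it, against 23.5%, and in animal 2, 6 did, against 25.2%.

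**Figure D2:**
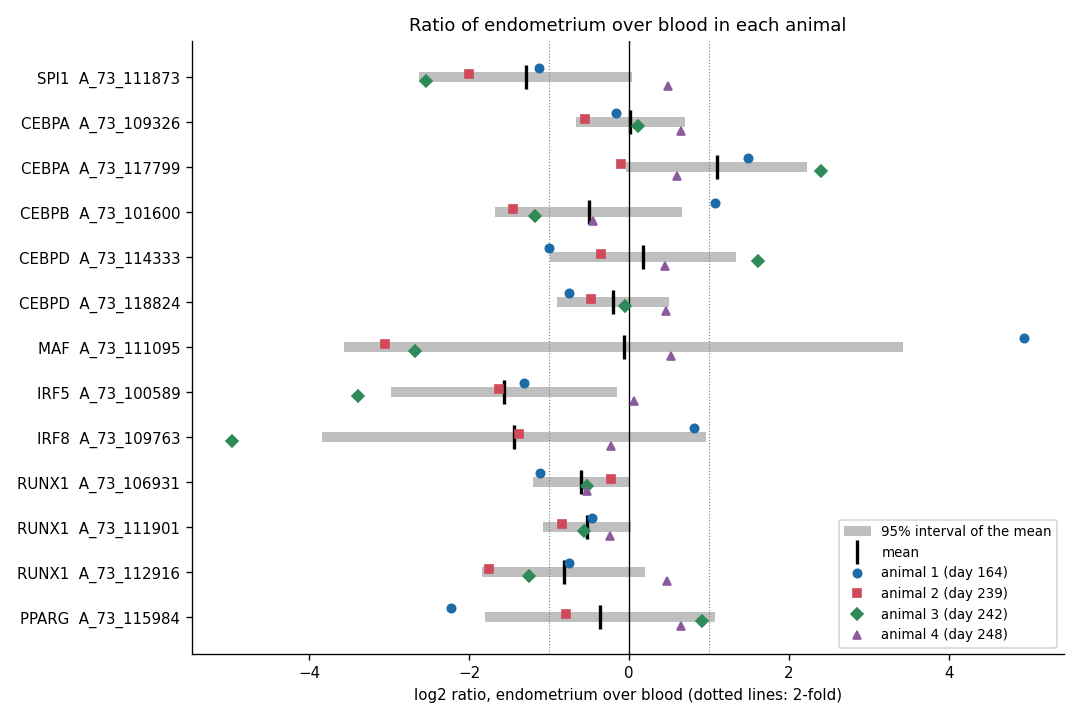
Log2 ratio of endometrium over blood for each probe, with points for the 4 animals, a black bar for their mean and a grey bar for its 95% interval from limma. The interval leaves out 0 for IRF5 alone, from -2.98 to -0.15, and the points of MAF span from -3.05 to 4.94.

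These differences between animals were repeated on the second array of the same RNA. The ratios of the 2 arrays of an animal had the same sign in 49 of 52 cases, and for no probe did they differ by more than 0.51. For MAF, the arrays gave 4.82 and 5.06 in animal 1 and -3.04 and -3.06 in animal 2. For IRF8 they gave -4.95 and -4.99 in animal 3. The arrays share the RNA extract of an animal, so that they measure technical error, and not the spread between cows.

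**Figure D3:**
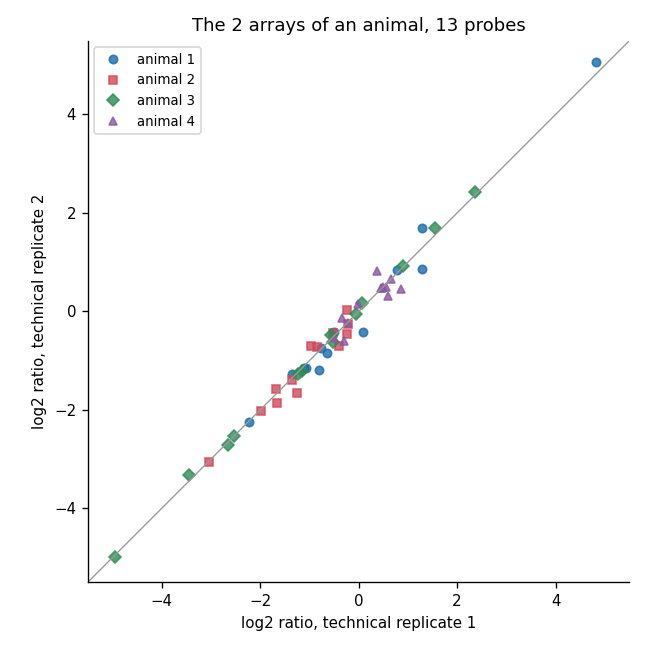
Log2 ratio of endometrium over blood on the first and the second technical replicate, for 13 probes in 4 animals. The points lie near the diagonal, with a largest distance between the arrays of 0.51, over ratios from -4.99 to 5.06.

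Of the factors that establish the lineage, SPI1 is the master regulator of monocytes and macrophages and, at lower amounts, of B cells. Its probe had log2 levels of 12.86, 7.69, 10.19 and 11.14 in the endometrium of animals 1 to 4, and of 13.98, 9.69, 12.72 and 10.65 in their blood. Blood was higher in animals 1, 2 and 3 and endometrium in animal 4, and both tissues spread over several log2 units. The mean log2 ratio was -1.29 (SE 0.53, 95% interval -2.62 to 0.04, adjusted p = 0.337). Without animal 4 it was -1.89 and without animal 3 it was -0.88, with adjusted p of 0.195 and 0.631. Fewer cells with the transcript and less transcript in each cell cannot be told apart in RNA of sorted populations, here and below.

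CEBPA, which drives progenitors toward granulocytes and monocytes, gave different pictures with its probes. The GC-rich probe had log2 levels of 11.53, 11.87, 11.80 and 12.39 in endometrium and of 11.69, 12.42, 11.68 and 11.74 in blood. All 8 values lay within 1 log2 unit, and the mean ratio was 0.01 (SE 0.27, 95% interval -0.67 to 0.70, adjusted p = 0.994). With the other probe, the levels were 11.41, 7.38, 12.07 and 8.56 in endometrium and 9.91, 7.48, 9.67 and 7.96 in blood. Endometrium was higher in animals 1, 3 and 4, the values of animals 1 and 3 were high in both tissues, and the mean ratio was 1.10 (SE 0.45, 95% interval -0.03 to 2.23, adjusted p = 0.337), and 0.66 without animal 3. Over the 8 samples the levels of the CEBPA probes had a Pearson's r of -0.56, given as a description of samples that share arrays.

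RUNX1, a factor of blood stem cells that stays on in monocytes and T cells, had 3 probes, and their mean ratios all pointed toward blood. The levels of A_73_112916 were 9.75, 8.02, 7.69 and 9.64 in endometrium and 10.50, 9.78, 8.94 and 9.16 in blood. Blood was higher in animals 1, 2 and 3, and the mean ratio was -0.82 (SE 0.41, adjusted p = 0.393), with -0.50 without animal 2 and -1.25 without animal 4. The levels of A_73_106931 were 10.31, 7.01, 6.84 and 6.83 in endometrium and 11.42, 7.23, 7.36 and 7.36 in blood. Animal 1 was far above the others in both tissues, and blood was higher in each of the 4 animals. The mean ratio was -0.59 (SE 0.24, adjusted p = 0.331), and -0.42 without animal 1. The remaining probe, A_73_111901, had levels of 7.89, 7.11, 6.09 and 7.70 in endometrium and 8.35, 7.95, 6.65 and 7.93 in blood. Here too blood was higher in each of the 4 animals, and the mean ratio was -0.52 (SE 0.22, adjusted p = 0.340). This dim probe, above background in 6 of 8 endometrial channels, had the smallest SD of the 13 with the values processed here. In the authors' value table its ratios in animals 1 to 4 were -0.61, -1.43, -2.32 and -0.29, a wider spread. In the authors' own value table the ratios of the 3 probes were -0.97, -1.05 and -1.16, in the same order, with adjusted p of 0.443, 0.314 and 0.331 in limma. The paper, with its own test and thresholds, lists RUNX1 among the genes higher in blood.

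The interferon regulatory factors were the members with the lowest mean ratios. IRF5, which carries signals of Toll-like receptors to inflammatory cytokine genes, had log2 levels of 11.72, 9.26, 9.60 and 11.67 in endometrium and of 13.04, 10.89, 12.98 and 11.61 in blood. Blood was higher in animals 1, 2 and 3, and the tissues were nearly level in animal 4. The mean ratio was -1.56 (SE 0.56, 95% interval -2.98 to -0.15), a 2.96-fold difference with an unadjusted p of 0.0355 and an adjusted p of 0.298 in limma. Without animal 4 the ratio was -2.11 and without animal 3 it was -0.96, with adjusted p of 0.217 and 0.544.

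IRF8, which directs progenitors to monocytes and dendritic cells and is also active in B cells, had levels of 13.94, 11.28, 10.47 and 13.53 in endometrium and of 13.12, 12.65, 15.43 and 13.76 in blood. Blood was higher by 4.97 in animal 3 and by 1.37 in animal 2, and endometrium was higher by 0.82 in animal 1. The mean ratio was -1.44 (SE 0.96, 95% interval -3.84 to 0.97, adjusted p = 0.508). It depended on animal 3, without which it was -0.26, and without animal 1 it was -2.19.

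Mean ratios of B cell markers were also negative for the most part, with their lowest median in animal 3. Of 9 such genes tested, 8 had negative mean ratios and 6 passed the unadjusted p toward blood, a side on which 4.99% of all genes did, and 0 passed the adjusted p. Their median ratio was -1.24, -1.65, -3.66 and -0.69 in animals 1 to 4. The summed linear level of the list lay between 3770 and 18200 in endometrium and between 7650 and 49100 in blood, and none of its genes was at background in all channels of a tissue. MS4A1, which encodes the B cell antigen CD20, had a mean ratio of -3.28 (SE 0.76, adjusted p = 0.262), and BLK, a kinase of B cells, one of -1.55 (SE 0.30, adjusted p = 0.254). SPIB, named here after its values were seen, had ratios of -0.90, -1.49, -4.45 and -0.37. The part of these genes in the values of IRF8, IRF5 and the SPI1 probe was not tested.

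CEBPB and CEBPD are the C/EBP proteins of the acute inflammatory response. CEBPB had log2 levels of 13.93, 13.33, 13.42 and 14.16 in endometrium and of 12.86, 14.78, 14.61 and 14.61 in blood. Blood was higher in animals 2, 3 and 4, and the blood of animal 1 lay apart below the other 3, so that endometrium was higher in that animal alone. The mean ratio was -0.50 (SE 0.46, 95% interval -1.67 to 0.66, adjusted p = 0.634), and without animal 1 it was -1.03 (adjusted p = 0.419), without animal 2 -0.19 (adjusted p = 0.925) and without animal 3 -0.28 (adjusted p = 0.893).

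CEBPD repeated the contrast of a GC-rich and a plainer probe. The probe with 45% G and C had levels of 11.47, 8.08, 9.48 and 8.66 in endometrium and of 12.47, 8.43, 7.87 and 8.20 in blood. Animal 1 was the highest in both tissues, each tissue was higher in 2 animals, and the mean ratio was 0.18 (SE 0.46, adjusted p = 0.892). The GC-rich probe had levels of 6.98, 7.66, 8.01 and 8.33 in endometrium and of 7.73, 8.14, 8.07 and 7.86 in blood. Here animal 1 had the lowest level of both tissues, and the mean ratio was -0.20 (SE 0.28, adjusted p = 0.770), with a range of -0.43 to -0.02 when 1 animal was left out. The levels of these probes had a Pearson's r of -0.58 over 8 samples, and that of their ratios was 0.67 over 4 animals. The SD of the blood levels was 2.17 with the plainer probe, above 98.3% of all probes, and 0.19 with the GC-rich one, above 19.6%.

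MAF, a basic leucine zipper factor of resting macrophages that also acts in T helper cells, had the widest spread of all 9 genes. Its levels were 14.17, 9.28, 8.72 and 12.58 in endometrium and 9.23, 12.33, 11.40 and 12.05 in blood. In animal 1 the endometrium was the higher of the tissues by 4.94, in animals 2 and 3 the blood was higher by 3.05 and 2.68, and in animal 4 they differed by 0.53. The mean ratio was -0.06 (SE 1.39, 95% interval -3.56 to 3.43, adjusted p = 0.994). Without animal 1 the ratio was -1.73, and without animal 2 or 3 it was 0.93 or 0.81.

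Genes of stroma and vessels were also high in the endometrial preparation of animal 1. All 16 genes of that list were tested, and their median ratio was 3.71 in animal 1, and in animals 2, 3 and 4 it was 0.06, 0.83 and 0.18. Of the list, 4 passed the unadjusted p toward endometrium, among them COL1A1 at 2.51 and VWF at 1.72, where 5.49% of all genes passed. Their summed linear level lay between 3290 and 86700 in endometrium and between 3740 and 33100 in blood, and CDH5, which encodes the cadherin of endothelial cells, was at background in all blood channels. COL1A1 had its highest ratio in animal 1, at 5.66. The vessel genes VWF, KDR and CDH5 had theirs in animal 3, at 3.87, 2.92 and 0.70, beside 1.72, 1.25 and 0.65 in animal 1. PECAM1, also a vessel gene, had its highest ratio in animal 1, at 0.76, beside 0.04 in animal 3. The part of other cell types in the MAF ratio of animal 1 was not tested.

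PPARG, the nuclear receptor that governs fatty acid storage and the alveolar macrophage, had levels of 8.45, 6.34, 7.27 and 7.40 in endometrium and of 10.68, 7.12, 6.36 and 6.74 in blood. Blood was higher in animals 1 and 2 and endometrium in animals 3 and 4, and the blood of animal 1 was the highest value. The mean ratio was -0.36 (SE 0.57, 95% interval -1.81 to 1.08, adjusted p = 0.806), and from -0.79 without animal 3 to 0.26 without animal 1. PPARG and the plainer CEBPD probe, but not the GC-rich one, shared a high blood value in the animal at day 164 of pregnancy. With 1 cow at that stage, this cannot be told apart from any other trait of the cow or of its cell preparation.

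The levels of some members went together over the 8 samples. The brightest probe of each gene was taken, which is the GC-rich one for CEBPA and the plainer one for CEBPD. The other probe of either gene had a negative r with it, as given above. Pearson's r was 0.95 for CEBPD with PPARG, 0.89 for SPI1 with IRF5 and 0.86 for IRF5 with IRF8. Without animal 1, over 6 samples, these values were 0.79, 0.89 and 0.97. The lowest r was -0.63, for CEBPB with CEBPD, and -0.46 without animal 1. For CEBPB with PPARG it was -0.60, and 0.0096 without animal 1. For SPI1 with PPARG it was 0.69, and 0.09 without animal 1. These values describe 8 samples of 4 animals, which share animals, arrays and normalization.

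**Figure D4:**
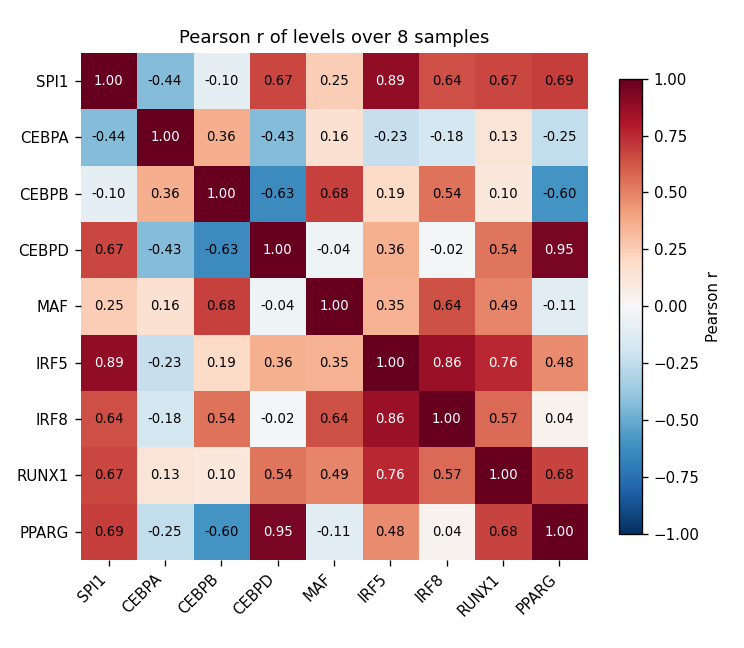
Pearson's r of the log2 levels over 8 samples, 4 of endometrium and 4 of blood, for each pair of the 9 factors. The brightest probe of each gene is used, the GC-rich one for CEBPA and the plainer one for CEBPD. SPI1, IRF5, IRF8 and RUNX1 form a block of positive values from 0.57 to 0.89, and CEBPB is negative with CEBPD and PPARG, at -0.63 and -0.60, of which the latter was 0.0096 without animal 1.

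Among 11868 other named genes, the one whose levels were most like those of each factor over the 8 samples was looked up. The SPI1 probe went with ZFP36, an RNA-binding protein that destabilizes cytokine transcripts (r = 0.98), and IRF5 with NFKBIE, an inhibitor of NF-κB (r = 0.96). CEBPD, by its plainer probe, went with NFAM1, a receptor of leukocytes with an activation motif (r = 0.99), and PPARG with PAPSS2, an enzyme of sulfation (r = 0.98). CEBPB went with SOD1 (r = 0.96), IRF8 with DLD (r = 0.98), MAF with MAP1A (r = 0.94) and RUNX1 with PLCB3 (r = 0.96). CEBPA, by its GC-rich probe, went with ZMAT5 (r = 0.95). These are the highest of 11868 coefficients over 8 values each, and are given as a description.

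The transcription factors that bind DNA with the 9 members or belong to their families were examined in the same way. Of 28 such genes tested, 0 passed the adjusted p in limma, and before adjustment 1 passed toward endometrium and 5 toward blood, as did 5.49% and 4.99% of all 15466 genes. NR1H3, the sterol sensor LXRα, had a mean ratio of 1.02 (SE 0.22, adjusted p = 0.262), with endometrium above blood in 4 of 4 animals. The small MAF proteins MAFK and MAFG had mean ratios of -1.79 and -1.03 (SE 0.46 and 0.30, adjusted p = 0.262 for both), and both were higher in blood in 4 of 4 animals. The other 3 toward blood, named after their values were seen, were SPIB, IRF1 and PPARD, at -1.80, -1.32 and -1.09.

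Of 23 other transcription factors of myeloid cells, 0 passed the adjusted p and 4 passed the unadjusted p toward endometrium, with 0 toward blood. The shares of all genes on these sides were 5.49% and 4.99%. EGR1 had a mean ratio of 1.84 (SE 0.39) and KLF6 of 1.36 (SE 0.32). Both had an adjusted p of 0.262 and were positive in all 4 animals. KLF4 and GATA2, named after their values were seen, completed the 4, at 2.10 and 1.39. EGR1 also belongs to a list of immediate early and heat shock genes, of which 10 of 16 passed the unadjusted p toward endometrium and 0 toward blood, FOSB with a ratio of 3.11 (SE 0.44) and HSPA6 with one of 3.76 (SE 0.55). The median ratio of that list was 1.09, 1.62, 2.10 and 0.60 in animals 1 to 4. Endometrial cells had been released with an enzyme and blood cells had not, and the part of this step in the values was not tested.

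Known target genes of the factors did not share 1 direction. Of 12 MAF target genes tested, 8 passed the unadjusted p toward endometrium and 0 toward blood, as did 5.49% and 4.99% of all genes. None passed the adjusted p, and their median ratio was 2.77, beside -0.02 over all genes. The chains of complement C1q, C1QB and C1QC, had ratios of 3.62 (SE 0.36, adjusted p = 0.0774) and 3.08 (SE 0.37, adjusted p = 0.119), and the hemoglobin receptor CD163 one of 2.05 (SE 0.52, adjusted p = 0.262). IL10, a further target, named after its values were seen, had a ratio of -1.50 (adjusted p = 0.365). In animals 1 to 4 the ratios of C1QB were 4.60, 2.62, 3.64 and 3.62, beside 4.94, -3.05, -2.68 and 0.53 for MAF. Animal 1 had the highest ratio of both genes, and animal 2 the lowest of both, but in animals 2 and 3 C1QB was positive and MAF negative. Of the other targets named here, C1QC had its highest and lowest ratios in the same animals as MAF. CD163 had its highest ratio in animal 4 instead, and IL10 its lowest in animal 1. The part of MAF in the ratios of its target genes was not tested. The lists of related genes were drawn up with earlier results of these data known, and their counts are no independent evidence.

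**Figure D5:**
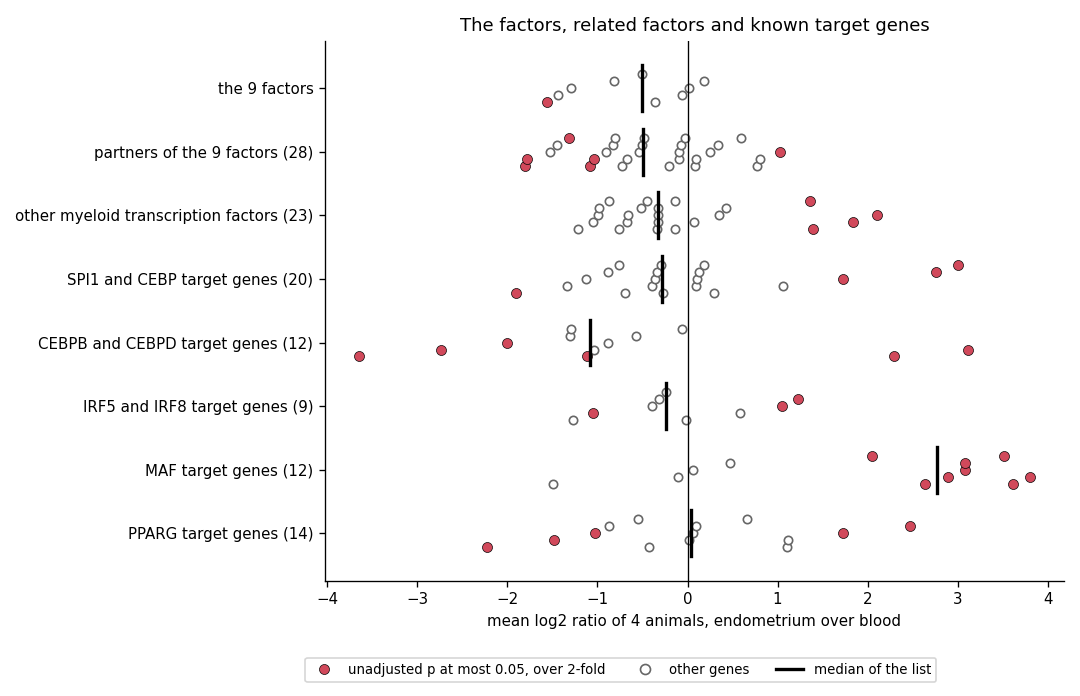
Mean log2 ratio of endometrium over blood for each gene of the 9 factors, their partners, other myeloid factors and known target genes, with the number of genes tested in brackets, filled points for a p of 0.05 or less before adjustment and a change over 2-fold, and black bars for the median of a list. CEBPA is shown by its GC-rich probe and CEBPD by its plainer one. MAF target genes have the highest median, 2.77, and CEBPB and CEBPD target genes the lowest, -1.08.

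Of 20 genes that SPI1 and the C/EBP proteins drive in myeloid cells, 3 passed the unadjusted p toward endometrium and 1 toward blood. Of all genes, 5.49% and 4.99% did. The scavenger receptor MSR1 had a mean ratio of 3.01 (SE 0.31, adjusted p = 0.0814), and CSF1R, the receptor for the macrophage growth factor, had 2.76 (SE 0.45, adjusted p = 0.232). Both ratios were positive in all 4 animals. LYN, a kinase of myeloid and B cells, had one of -1.91 (SE 0.67, adjusted p = 0.291). The median of the list was -0.28.

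Of 12 target genes of CEBPB and CEBPD, 2 passed the unadjusted p toward endometrium and 4 toward blood, beside 5.49% and 4.99% of all genes. CCL2, which attracts monocytes, and SAA3, an acute-phase protein, had mean ratios of 2.30 (SE 0.40, adjusted p = 0.242) and 3.12 (SE 0.63, adjusted p = 0.262). The pentraxin PTX3 and the prostaglandin synthase PTGS2 had ratios of -3.65 (SE 0.94, adjusted p = 0.262) and -2.74 (SE 0.81, adjusted p = 0.269). The median ratio of this list was -4.32 in animal 1, whose blood stood apart, and -0.56, 0.28 and -0.09 in animals 2, 3 and 4. In animal 1 CEBPD was higher in blood and CEBPB in endometrium.

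The 9 target genes of IRF5 and IRF8 that were tested included 2 toward endometrium, the cytokine IL18 and the protease CTSC, at 1.05 and 1.23, and 1 toward blood, the repressor BCL6, at -1.05. For the 14 target genes of PPARG there were 2 toward endometrium, the desaturase SCD at 1.73 and the kinase PDK4 at 2.47, and 3 toward blood, among them the carnitine acyltransferase CPT1A at -2.23 and the receptor OLR1 at -1.48. These counts are at the unadjusted p, which 5.49% of all genes passed toward endometrium and 4.99% toward blood. None of the genes of these lists passed the adjusted p, and the medians of the lists were -0.24 and 0.04.

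Marker lists of other cell types also differed between the tissues. For comparison, 5.49% of all genes passed the unadjusted p toward endometrium and 4.99% toward blood. All 14 epithelial genes had positive ratios, 8 past the unadjusted p, with SERPINA14 at 6.10 and CDH1 at 3.19, and their summed level was 13200 to 116000 in endometrium and 1620 to 3950 in blood. Of 12 trophoblast genes tested, 4 passed the adjusted p toward endometrium, where 0.0711% of all genes did, namely PRP1, PRP6, PAG7 and CSH2, at 4.22, 4.36, 3.84 and 3.93. PAG1 went the other way, at -2.35 (adjusted p = 0.262), with blood higher in 4 of 4 animals. The summed level of the list was 15000 to 48600 in endometrium against 2790 to 8030 in blood. CDX2 and PAG2 were at background in all channels of both tissues, and HSD3B1 in all those of blood. Of 18 genes of T and natural killer cells, 3 passed the unadjusted p toward endometrium, among them CD247 at 1.18 and CD2 at 1.52, and BCL11B toward blood at -1.40. Their summed level in animals 1 to 4 was 5560, 94100, 39200 and 50700 in endometrium and 2220, 60400, 32400 and 59900 in blood. Granulocyte and dendritic cell lists had 6 and 5 genes tested, 1 each past the unadjusted p, CXCR1 at -1.08 and CCR7 at -2.94, both toward blood. The part of these cells in the values of the 9 factors was not tested.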

How the data were processed

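The authors deposited scanner files with the intensity of each spot and its background in both dyes, not normalized, together with log2 values, normalized by lowess and quantiles, for each channel. The files carry Feature Extraction 10.5.1.1, the labels 9.5. In all 16 columns these log2 values equaled, at 100% of the probes within 0.001, the scanner's rank-matched processed signal of the swapped file, that is, the file listed under the animal's other hybridization (0.0977% to 0.714% with its own file), and files were read so. In limma 3.58.1 (R 4.3.3, statmod 1.5.0 and version 1.17.8 of data.table), median intensities were corrected by normexp (offset 50), normalized by loess and by quantiles over 16 channels, and spots of a probe averaged. A level is this log2 value averaged over the 2 arrays of an animal, and a ratio is endometrium minus blood. lmFit and eBayes tested 4 ratios against 0, with Benjamini-Hochberg adjustment over 16653 probes with 4 or more of 8 channels of a tissue well above background. Animals pair the tissues, per the labels, and the deviations of the paired tissues correlated with r of 0.209 to 0.618 over probes. A 2-sided exact permutation test over 4 animals cannot go below 0.125. The number of animals limits precision.

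The members and lists were chosen with earlier results of these data known. Text names all member probes, in each list the genes past the adjusted p or the 2 lowest unadjusted p on each side, the most similar gene of each member, CD14 and CD68. Other genes were named after their values were seen. A list takes the brightest tested probe of a gene. A gene of these lists is counted but not reported by name here. Probe names were updated from RefSeq gene names (ARS-UCD2.0), by accession for 3519 probes and gene identifier for 9610, and 4972 kept the name in the files. For MAF and 2 RUNX1 probes the symbol stands in the files' column of systematic names. Probe positions were not used here. Alternatives changed background, normalization, intensities, filter, pairing, dye, technical replicates, test and animals. The alternative called the methods' test is a t-test of the 4 ratios against 0 without pooling the spread over probes. It used the values processed here and the adjusted p, and before adjustment 687 of 16653 probes passed it. The authors' own analysis of variance used their values and a replicate term, and was not rerun.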

Additional observations from a re-analysis of the deposited data

Results flagged for a closer look

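Each group of 4 levels or ratios of a probe was examined for a value whose gap to the nearest other, divided by the range, exceeded Dixon's 95% critical value, and 5 of 39 groups had one. Chance gives about 1 in 20. In 4 of the 5 the value was that of animal 1, the cow at day 164. In the blood of animal 1, CEBPD A_73_114333 was high at 12.47, where the other 3 animals lay between 7.87 and 8.43, and RUNX1 A_73_106931 was high at 11.42, where they lay between 7.23 and 7.36. The same RUNX1 probe was high in the endometrium of animal 1, at 10.31, where the others lay between 6.83 and 7.01. CEBPB A_73_101600 was low in the blood of animal 1, at 12.86, where the others lay between 14.61 and 14.78. The GC-rich CEBPA probe A_73_109326 was high in the blood of animal 2, at 12.42, where the others lay between 11.68 and 11.74. No group of 4 ratios was singled out by this measure, and the cause of these values was not tested.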

How the results depend on the processing

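No alternative called any of the 13 probes, and 186 of 195 member ratios kept their direction under 15 alternatives. The files as attached are not among these 15. They would give the ratios of animals 1, 2 and 4 the opposite sign, and member ratios under them were not tallied. The other 9 changed sign, and they were the GC-rich CEBPA probe at -0.019 both with the value table and with the processed signal of the scanner, at -0.13 on technical replicate 2 alone, at -0.02 without animal 3 and at -0.20 without animal 4, PPARG at 0.26 without animal 1, MAF at 0.93 without animal 2 and 0.81 without animal 3, and CEBPD A_73_114333 at -0.30 without animal 3. Over all probes, 11 were differentially expressed, and 50 without background correction, 6 with mean scaling, 224 with the processed signal, 224 with the value table, 5 without a filter, 44 with a filter on all 8 channels, 793 in a fit of single arrays with dye and a random animal term, 20 and 5 on technical replicates 1 and 2 alone, 0 by the methods' test, 0 with any 1 animal left out and 0 with files as attached. Without the pairing (no replicate block) it was 4. Of the members, 1 passed the unadjusted p, and 0 without a filter, 3 with the filter on 8 channels, 3 with the dye term, 2 on technical replicate 2, 0 by the methods' test, 0 to 3 with 1 animal left out, 0 with files as attached and 0 without the replicate block. The shares of all probes, both directions together, moved as well. They were 10.38% in the main fit, and in the same order 6.24%, 13.85%, 14.18%, 10.86%, 4.1%, 5.5% to 13.56%, 0.73% and 6.75%. With 1 animal left out, the GC-rich CEBPA probe ranged from -0.20 to 0.20, CEBPD A_73_114333 from -0.30 to 0.57, MAF from -1.73 to 0.93 and PPARG from -0.79 to 0.26. The adjusted p of IRF5 ranged from 0.0707 to 0.559. The cause of these shifts was not tested.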
